A study of Homo sapiens with 6 samples.

Results

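The integrated stress response bZIP factors and the PPP1R15 genes were followed in REH cells given ML141. The set is defined by gene names and not by a cutoff on values, but it was proposed with earlier results of these data known. It holds 10 genes of the 26485 entries of the deposited table: the factors ATF4, ATF5, ATF3, DDIT3, CEBPB, CEBPG, CEBPD and NFIL3, and the phosphatase subunits PPP1R15A (GADD34) and PPP1R15B (CReP). REH is an established human cell line from B-precursor acute lymphoblastic leukemia that carries the ETV6-RUNX1 fusion. The ML141 group was given 25 µM ML141, which blocks the small GTPase CDC42, for 24 h, and the DMSO group the solvent for 24 h. There were 3 libraries in each group, drawn from 3 independent experiments per the series' design text, and all came from this single line grown with fetal bovine serum.

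The integrated stress response starts with kinases that phosphorylate the initiation factor eIF2-alpha under amino acid shortage, endoplasmic reticulum stress, heme shortage or viral RNA. General translation then slows, while mRNAs with upstream open reading frames, among them those of ATF4, ATF5, DDIT3 and PPP1R15A, are translated better. The bZIP factors bind DNA as pairs through a basic region and a leucine zipper, and PPP1R15A brings protein phosphatase 1 to eIF2-alpha, which ends the response. An RNA count measures the mRNA level and not its translation.

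The libraries held 10436147 to 12308039 counts with ML141 and 8284299 to 10837224 with DMSO. A single count was worth 0.0754 to 0.0926 CPM (counts scaled by TMM-adjusted sequencing depth) with ML141 and 0.0964 to 0.130 CPM with DMSO. Of 12 precursor B cell markers, 11 averaged at least 1 CPM in a group, among them PAX5 and DNTT, and VPREB1 had 1 count in all. Their summed level was 8830 to 9070 CPM with ML141 and 6600 to 7190 CPM with DMSO. The 8 markers of T and NK cells had at most 13 counts in a library, with CD3D, CD3G and CD2 at 0, and 6 of erythroid and megakaryocytic cells summed to 0 to 0.463 CPM with ML141 and 0.0964 to 0.130 CPM with DMSO, with HBB, HBA1 and PF4 at 0. Of 8 myeloid markers MPO, CSF1R and ITGAM reached 1 CPM, and ELANE and S100A8 were at 0. Their sum was 32.7 to 36.3 CPM with ML141 and 49.1 to 50.3 CPM with DMSO. MPO alone averaged 26.2 CPM with ML141 and 41.4 CPM with DMSO. Of 6 fibroblast and epithelial markers only COL1A1 reached 1 CPM, and their sum was 0.556 to 1.72 CPM with ML141 and 1.87 to 2.07 CPM with DMSO. Which cells of the culture held these RNAs was not tested. CDC42 itself averaged 201.5 ± 10.8 CPM with ML141 and 277.4 ± 2.50 CPM with DMSO (SD, n = 3 each), or -0.46 on the log2 scale (SE 0.075, edgeR adjusted p = 2.93e-04). ML141 targets the CDC42 protein, so this level does not check the treatment.

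With ML141, 7 of the 10 genes rose and 0 fell, and 0 were lower at an unadjusted p of 0.05 or by DESeq2 or limma-voom. By edgeR's quasi-likelihood test, adjusted over all 11454 genes tested, DDIT3, PPP1R15A, CEBPB, ATF5, CEBPG, ATF3 and ATF4 were higher at an adjusted p of 0.05, and 6 of them, all but ATF4, by more than 2-fold. NFIL3 and PPP1R15B did not pass the test, and CEBPD had too few counts to be tested. Among all tested genes 54.4% changed in either direction, 26.7% were higher, 6.76% were higher by more than 2-fold and 6.24% were lower by more than 2-fold. The median log2 fold change was 1.08 over the 9 tested genes of the set and 0.02 over all tested genes. The lowest ML141 library lay above the highest DMSO library in 8 of the 9, where this held for 30.5% of all tested genes and 61.2% did not overlap in either direction. In RNA of a whole culture, more RNA per cell and more cells that hold the RNA cannot be told apart.

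**Figure D1:**
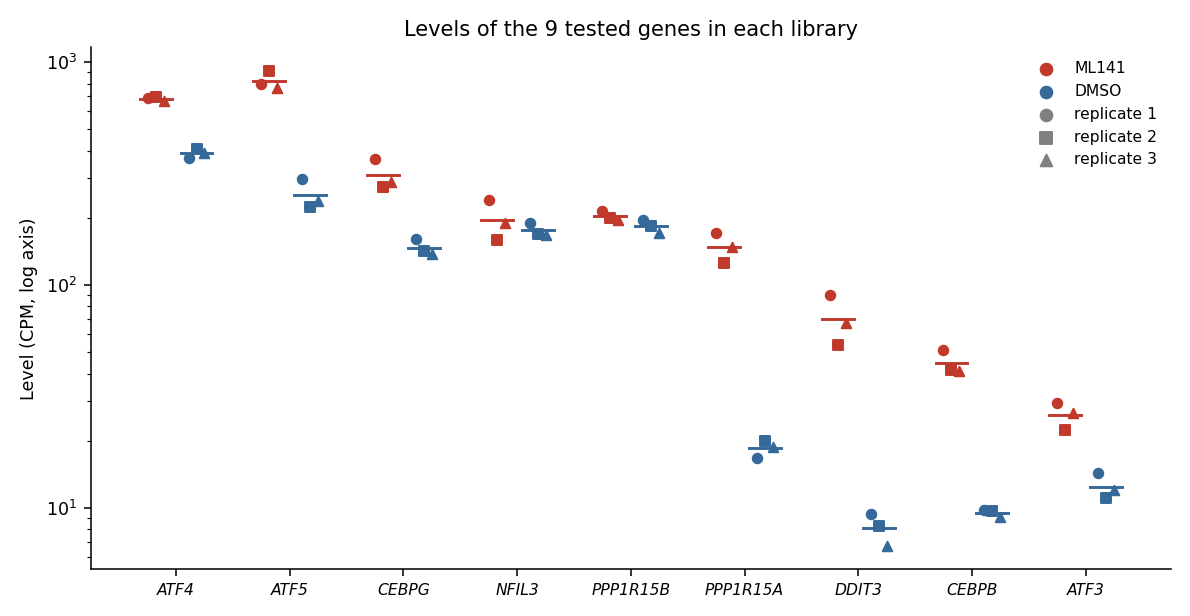
Level of each of the 9 tested genes (CPM on a log axis) in every library, with ML141 libraries in red on the left and DMSO libraries in blue on the right of each pair; bars are group means and marker shapes are replicate numbers. The groups stand clear of each other for ATF4, ATF5, CEBPG, PPP1R15A, DDIT3, CEBPB and ATF3, lie within 0.7 CPM of touching for PPP1R15B (196.3 against 195.6 CPM) and overlap for NFIL3.

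ATF4, the central activator of the response, lies on chromosome 22 from 39519695 to 39522685 on the plus strand (hg38). Its level was 691.9, 696.1 and 667.6 CPM in ML141 replicates 1, 2 and 3, against 369.4, 406.1 and 392.2 CPM in DMSO replicates 1, 2 and 3. The ML141 libraries were closely alike, with a coefficient of variation of 2.24%, and all lay above the DMSO libraries. The log2 fold change was 0.82 (SE 0.075, edgeR adjusted p = 3.96e-06), or 1.76-fold. GENCODE lists 4 processed pseudogene copies of ATF4 (ATF4P1 to ATF4P4), which the deposited table does not list under those names, so how reads matching both were counted is uncertain.

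ATF5, a close relative of ATF4 that is also under translational control and acts in the mitochondrial stress response, rose in every ML141 library (chromosome 19, 49928702 to 49933935, plus strand). Its level was 793.4, 909.6 and 764.3 CPM in ML141 replicates 1, 2 and 3, against 298.7, 224.5 and 238.4 CPM in the DMSO replicates. The highest DMSO library, replicate 1, was still far below every ML141 library. The log2 fold change was 1.70 (SE 0.114, edgeR adjusted p = 4.15e-07), or 3.24-fold. The kit keeps no strand information, and ATF5 shares 563 exon bases, 21.9% of its own, with NUP62 on the opposite strand, a nuclear pore gene whose log2 fold change was -2.66 (SE 0.119), and 75 with IL4I1. Reads from those bases cannot be assigned by strand, and their part in the ATF5 value was not tested.

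ATF3, a factor induced early by many stresses that represses as a homodimer, had the lowest level per kb of exon with ML141 among the genes that rose (chromosome 1, 212565334 to 212620777, plus strand). It had 317, 296 and 308 counts in ML141 replicates 1, 2 and 3, against 110, 106 and 124 counts in the DMSO replicates. Scaled, these were 29.4, 22.3 and 26.5 CPM with ML141, against 14.3, 11.0 and 12.0 CPM with DMSO. The groups did not overlap, and the log2 fold change was 1.07 (SE 0.150, edgeR adjusted p = 9.03e-05), or 2.11-fold.

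DDIT3, which encodes CHOP, a partner of C/EBP proteins linked to cell death under long stress, had the largest fold change of the set, within its SE of that of PPP1R15A (chromosome 12, 57516588 to 57521737, minus strand). It had 976, 711 and 786 counts in ML141 replicates 1, 2 and 3, against 72, 80 and 70 counts in the DMSO replicates. The levels were 90.4, 53.6 and 67.6 CPM with ML141 and 9.33, 8.29 and 6.75 CPM with DMSO. Its ML141 libraries were also the least alike of the tested genes, with a coefficient of variation of 26.3%, yet the lowest of them was several times the highest DMSO library. The log2 fold change was 3.13 (SE 0.201, edgeR adjusted p = 3.06e-07), or 8.73-fold, which ranked 33 among the 11454 tested genes ordered from the highest fold change. DDIT3 shares 62 exon bases, 4.74% of its own, with the opposite-strand gene MARS, the methionyl-tRNA synthetase, which averaged 359.1 CPM with ML141 and 303.1 CPM with DMSO. A further 105 bases are shared with AC022506.1 on the same strand, a name that the deposited table does not list, and the part of these bases in the DDIT3 value was not tested.

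Among the C/EBP genes CEBPB and CEBPG rose, and CEBPD was at the limit of detection. CEBPB, an activator that pairs with both CHOP and ATF4, had 552, 549 and 479 counts in ML141 replicates 1, 2 and 3, against 75, 93 and 94 counts in the DMSO replicates (chromosome 20, 50190734 to 50192689, plus strand). These were 51.1, 41.4 and 41.2 CPM with ML141, against 9.72, 9.64 and 9.06 CPM with DMSO. The DMSO libraries agreed within a coefficient of variation of 3.80%, and the log2 fold change was 2.23 (SE 0.133, edgeR adjusted p = 2.16e-07), or 4.70-fold. Of its exon bases 11.8% are shared with CEBPB-AS1 on the opposite strand, which had 23, 29 and 28 counts with ML141, against 4, 5 and 9 counts with DMSO. Without strand information reads from the shared bases cannot be assigned.

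CEBPG, a short C/EBP protein that lacks an activation domain and binds DNA with ATF4, had a higher level per kb than CEBPB in every library (chromosome 19, 33373330 to 33382686, plus strand). Its level was 365.1, 274.2 and 289.1 CPM in ML141 replicates 1, 2 and 3, against 161.2, 142.5 and 137.1 CPM in the DMSO replicates. The groups did not overlap, and the log2 fold change was 1.08 (SE 0.112, edgeR adjusted p = 9.82e-06), or 2.11-fold. CEBPD, a C/EBP factor of inflammatory responses (chromosome 8, 47736909 to 47739086, minus strand), had 0, 3 and 3 counts in ML141 replicates 1, 2 and 3 and 0 counts in every DMSO library. No library was above the limit of 3 counts that a count of 0 allows, which is 0.226 to 0.278 CPM with ML141 and 0.289 to 0.389 CPM with DMSO, so no difference was detectable at this depth. The authors' deposited table lists a log2 fold change of 3.01 for CEBPD with no adjusted p, which rests on these 6 counts.

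NFIL3, a bZIP repressor that also serves the circadian clock and lymphocyte development, did not pass the test and was uneven between libraries (chromosome 9, 91409045 to 91423862, minus strand). Its level was 240.1, 158.4 and 189.7 CPM in ML141 replicates 1, 2 and 3, against 188.9, 169.0 and 168.1 CPM in the DMSO replicates. ML141 replicate 1 lay above every DMSO library and ML141 replicate 2 below every DMSO library. The log2 fold change was 0.16 (SE 0.128, edgeR adjusted p = 0.309), and it turned to -0.01 (adjusted p = 0.915) without ML141 replicate 1. Without ML141 replicate 2 it was 0.29 (adjusted p = 0.0324), and with library totals in place of TMM factors 0.33 (adjusted p = 0.0341), both past the threshold.

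Across the tested genes, ML141 replicate 1 was the highest ML141 library for 7 of 9, namely ATF3, DDIT3, CEBPB, CEBPG, NFIL3, PPP1R15A and PPP1R15B. ATF4 and ATF5 were instead highest in ML141 replicate 2. Leaving out any single library kept the 7 genes that rose past the threshold.

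Of the PPP1R15 genes, PPP1R15A rose and PPP1R15B did not pass the test. PPP1R15A, the stress-induced subunit that restores translation (chromosome 19, 48872392 to 48876057, plus strand), had 1838, 1670 and 1719 counts in ML141 replicates 1, 2 and 3, against 129, 193 and 194 counts in the DMSO replicates. Its level was 170.3, 125.9 and 147.8 CPM with ML141, against 16.7, 20.0 and 18.7 CPM with DMSO. The log2 fold change was 3.00 (SE 0.129, edgeR adjusted p = 3.09e-08), or 7.98-fold, which ranked 40 among all tested genes. PPP1R15B, the constitutive subunit that holds eIF2-alpha dephosphorylated in unstressed cells (chromosome 1, 204403387 to 204411791, minus strand), had 213.5, 200.1 and 196.3 CPM in ML141 replicates 1, 2 and 3, against 195.6, 183.1 and 170.4 CPM in the DMSO replicates. The libraries were ordered by group but nearly touched, and the log2 fold change was 0.15 (SE 0.081, edgeR adjusted p = 0.132). That value was past the threshold with upper-quartile factors (0.25, adjusted p = 0.0109) and with library totals (0.33, adjusted p = 0.00264), which raise the median of all genes to 0.12 and 0.19 from 0.02.

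**Figure D2:**
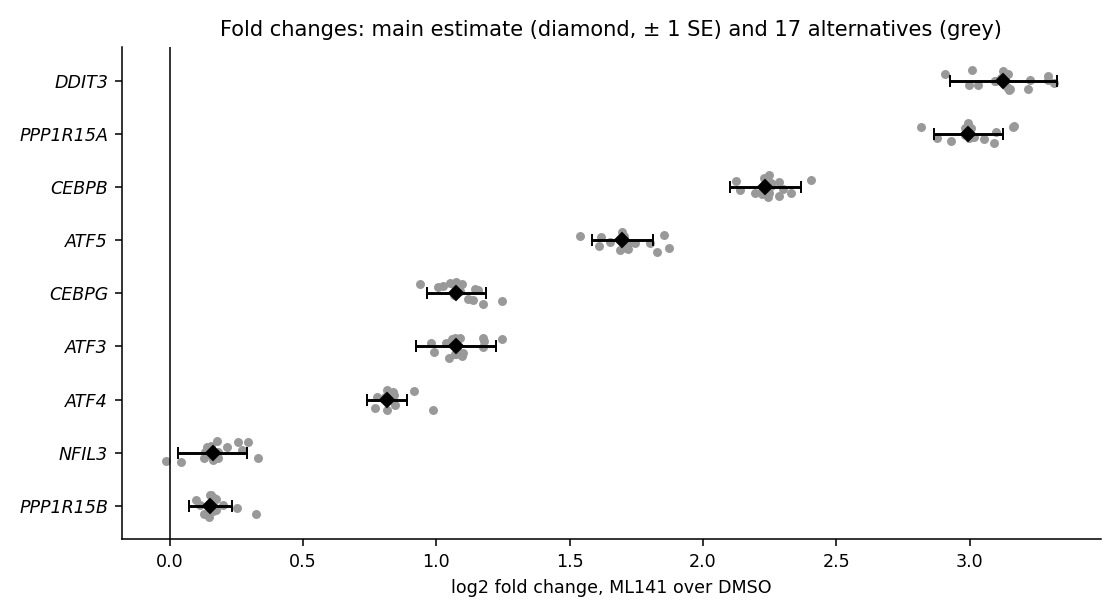
Log2 fold change of each tested gene, ML141 over DMSO, with the main estimate as a diamond with ± 1 SE and each of 17 alternative settings as a grey point. All alternatives of the upper 7 genes lie well right of 0, from 0.77 for the lowest of ATF4 to 3.32 for the highest of DDIT3, while those of NFIL3 span -0.01 to 0.33 and those of PPP1R15B 0.10 to 0.33.

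The difference between paired genes was measured within each library, which is free of scaling. The log2 ratio of PPP1R15A to PPP1R15B counts was -0.33, -0.67 and -0.41 in ML141 replicates 1, 2 and 3, against -3.54, -3.19 and -3.18 in the DMSO replicates. Every ML141 library lay above every DMSO library. The means were -0.47 ± 0.18 with ML141 and -3.31 ± 0.21 with DMSO (SD, n = 3 each), a difference of 2.84. The exact permutation test (2-sided) gave p = 0.1, the lowest value possible with 3 libraries a group. For CEBPB over CEBPG the log2 ratio was -2.79 ± 0.057 with ML141 and -3.94 ± 0.086 with DMSO (SD, n = 3 each), a difference of 1.15 (exact permutation p = 0.1). This ratio, too, was higher in each ML141 library than in any DMSO library.

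**Figure D3:**
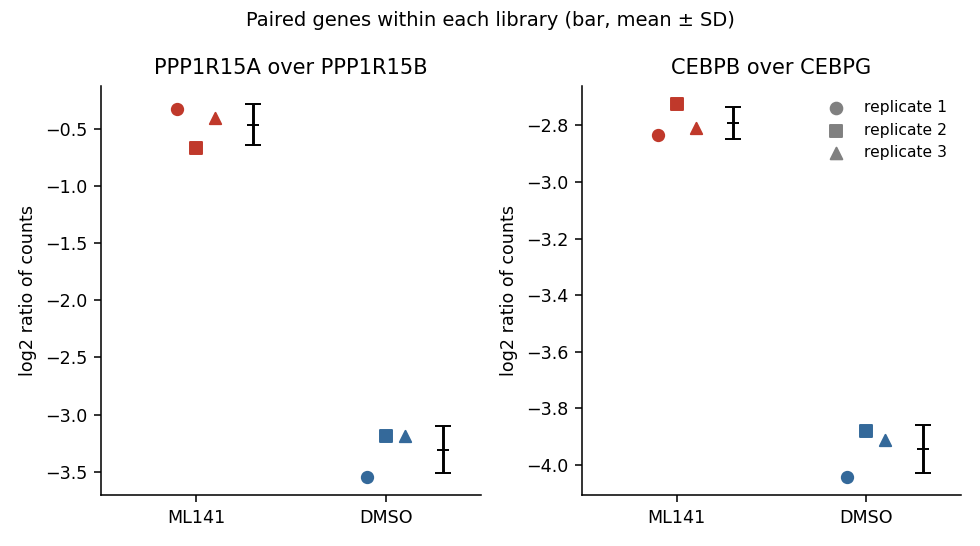
Log2 ratio of counts within each library for PPP1R15A over PPP1R15B (left panel) and CEBPB over CEBPG (right panel), ML141 in red left of DMSO in blue, with bars for the mean ± SD of 3 libraries. The y axes do not start at 0; ML141 libraries sit 2.84 above DMSO libraries in the left panel and 1.15 above in the right panel.

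Levels were compared between genes per kilobase of annotated exon. In ML141 libraries ATF5 was highest at 319 ± 29.9 CPM per kb, followed by ATF4 at 273 ± 6.11, and in DMSO libraries ATF4 was highest at 155 ± 7.37, followed by ATF5 at 98.6 ± 15.3 CPM per kb (SD, n = 3). Over the full exon length, the libraries of ATF4 and ATF5 did not overlap in either group, and by this measure their order was reversed between the groups. The ATF5 exon length includes the bases shared with NUP62 and IL4I1. How reads from those bases were counted is not given, and the order without them was not tested. NFIL3 came next in both groups, at 94.0 ± 19.8 CPM per kb with ML141 and 84.1 ± 5.63 with DMSO, where it overlapped ATF5. With ML141, CEBPG at 70.2 ± 11.0, PPP1R15A at 62.2 ± 9.32 and DDIT3 at 54.0 ± 14.2 CPM per kb followed, and each overlapped the gene before it. PPP1R15B came next at 38.9 ± 1.73 CPM per kb and just missed DDIT3 (highest library 40.8, against 41.0 for the lowest of DDIT3). With DMSO, PPP1R15A at 7.77 ± 0.69, DDIT3 at 6.22 ± 1.00, ATF3 at 4.89 ± 0.66 and CEBPB at 4.84 ± 0.18 CPM per kb formed a low group in which each overlapped the next.

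As a share of the summed level per kb of the 8 bZIP genes, ATF5 made up 37.9 ± 3.78% with ML141 and 25.4 ± 2.75% with DMSO. DDIT3 made up 6.37 ± 1.45% with ML141 and 1.60 ± 0.20% with DMSO, and CEBPB 2.70 ± 0.22% with ML141 and 1.25 ± 0.05% with DMSO. The share of ATF4 was 32.4 ± 1.19% with ML141 and 40.1 ± 3.60% with DMSO, and that of NFIL3 11.1 ± 1.97% with ML141 and 21.7 ± 0.42% with DMSO. CEBPG held 8.30 ± 0.96% with ML141 and 8.60 ± 0.34% with DMSO. The sum itself was 843.2 ± 43.1 CPM per kb with ML141 and 386.8 ± 18.3 with DMSO (SD, n = 3 each).

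**Figure D4:**
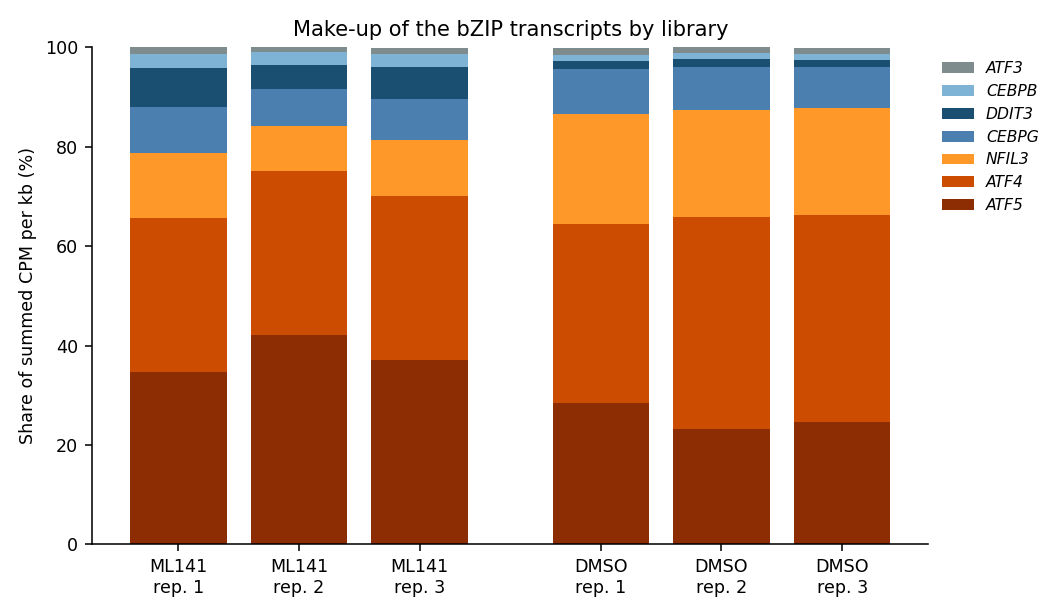
Share of the summed CPM per kb that each bZIP gene makes up in each library, ML141 libraries left of DMSO libraries; CEBPD, at most 0.0148%, is too small to draw. The bands of ATF5, DDIT3 and CEBPB are wider in the ML141 libraries and those of ATF4 and NFIL3 are narrower.

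Promoter letters are shown for CEBPG and PPP1R15B, which share a motif of this pathway but not a call, and for PPP1R15A, set beside its paralog. The 250 bases before each annotated start were read from RefSeq (GRCh38.p14, the same build as hg38), which gave 17 windows for 9 of the 10 genes, and were searched on both strands for TGATGNAA, the ATF4-C/EBP composite element, and for TGACGTCA, the cAMP response element bound by ATF and CREB factors. The composite letters were found in 3 of the 17 windows, of CEBPG, PPP1R15B and ATF3, and in 3.14% of all 35116 promoter windows. The cAMP response element was found in 1 of the 17 windows, that of PPP1R15A, and in 1.65% of all windows. No window of these genes held both motifs. The CEBPG window with the match lies at chr19:33373863-33374112 on the plus strand, and the match starts 42 bases before the start. The other CEBPG window held neither motif. That of PPP1R15B lies at chr1:204411818-204412067 on the minus strand (227 bases before), and that of PPP1R15A at chr19:48872171-48872420 on the plus strand (58 bases before). All are written 5′ to 3′ with the matched letters in capitals.
CEBPG: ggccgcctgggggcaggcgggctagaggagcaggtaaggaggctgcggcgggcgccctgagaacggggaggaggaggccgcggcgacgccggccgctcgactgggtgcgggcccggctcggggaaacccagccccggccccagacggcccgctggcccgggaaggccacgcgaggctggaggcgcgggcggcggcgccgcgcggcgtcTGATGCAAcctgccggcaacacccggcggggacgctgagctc
PPP1R15B: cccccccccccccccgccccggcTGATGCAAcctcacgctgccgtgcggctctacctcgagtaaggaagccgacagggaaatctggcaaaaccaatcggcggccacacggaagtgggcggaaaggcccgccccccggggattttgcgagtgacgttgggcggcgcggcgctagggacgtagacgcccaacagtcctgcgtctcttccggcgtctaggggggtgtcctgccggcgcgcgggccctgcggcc
PPP1R15A: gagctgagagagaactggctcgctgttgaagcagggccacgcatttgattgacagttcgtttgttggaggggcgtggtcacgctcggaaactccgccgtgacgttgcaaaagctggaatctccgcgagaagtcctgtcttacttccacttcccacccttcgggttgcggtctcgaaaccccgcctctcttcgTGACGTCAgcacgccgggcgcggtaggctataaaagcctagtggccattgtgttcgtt
CEBPG and PPP1R15B carry the same 8 letters, TGATGCAA. CEBPG rose 2.11-fold, and PPP1R15B passed the threshold only with upper-quartile factors or library totals. Whether these letters bear on either level was not tested, and the pair was picked with the calls known. The ATF3 match, TGATGGAA, lies 191 bases before the upstream of its 2 starts, and ATF3 rose 2.11-fold. No window of DDIT3, ATF4, ATF5, CEBPB or NFIL3 held either set of letters, which says only that these letters are not in these windows.

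The genes around these factors were counted in 8 lists. Of 42 ATF4 target genes 34 were tested. Of these 27 were higher (79.4%, against 26.7% of all tested genes) and 1 lower with ML141, with a median log2 fold change of 0.82. With library totals 31 were higher, where 39.2% of all tested genes were. Without replicate 3 of both groups 21 were higher, where 1920 of all 11457 tested genes were. The smallest p among the higher ones belonged to TRIB3, a pseudokinase that binds ATF4, at 3.80 (SE 0.096), WARS, the tryptophanyl-tRNA synthetase, at 1.69 (SE 0.091), and HERPUD1, which acts in the disposal of misfolded proteins, at 2.20 (SE 0.105). ALDH18A1, which makes the proline precursor pyrroline-5-carboxylate, was the one that fell, by 0.96 on the log2 scale (SE 0.080, edgeR adjusted p = 1.89e-06). TRIB3 averaged 491.7 ± 18.9 CPM with ML141 and 35.2 ± 3.43 CPM with DMSO.

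Of 8 CHOP-linked genes of cell death and endoplasmic reticulum oxidation 4 were higher and 3 lower (37.5%), where 26.7% of all tested genes were higher and 27.7% lower. With library totals 5 were higher and 2 lower, where 39.2% of all tested genes were higher and 20.1% lower. BBC3, the pro-apoptotic protein PUMA, rose to 14.9 ± 1.99 CPM with ML141, against 2.40 ± 0.52 CPM with DMSO (log2 2.60, SE 0.206, edgeR adjusted p = 1.32e-06). TNFRSF10B, the death receptor DR5, rose by 1.26 (SE 0.111), and TRIB3, which is also in the ATF4 list, was the other gene named by p. ERO1A, an oxidase of the endoplasmic reticulum, fell by 0.67 on the log2 scale (SE 0.101) and BCL2L11, the pro-apoptotic protein BIM, fell by 0.42 (SE 0.097). TNFRSF10A, the death receptor DR4, fell by 0.64 (SE 0.206, edgeR adjusted p = 0.0200). Its call was lost without DMSO replicate 2 (adjusted p = 0.0940), ML141 replicate 1 (0.0504) or ML141 replicate 3 (0.0501), with upper-quartile factors (0.0542) and with library totals (0.0803).

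Of 7 tested eIF2-alpha kinases and regulators 1 was higher (14.3%) and 3 lower (42.9%), against 26.7% higher and 27.7% lower among all tested genes. With library totals 2 were higher and 2 lower, against 39.2% and 20.1% of all tested genes. EIF2AK2 (the kinase PKR, activated by double-stranded RNA) fell by 0.46 on the log2 scale (SE 0.082), and GCN1, an activator of GCN2, fell by 0.44 (SE 0.098). EIF2AK1, the heme-regulated kinase HRI, fell by 0.31 (SE 0.075, edgeR adjusted p = 0.00417), a call lost with library totals (adjusted p = 0.127). DNAJC3, an inhibitor of some of the eIF2-alpha kinases, rose by 0.36 (SE 0.128, edgeR adjusted p = 0.0325). Its call was lost without DMSO replicate 2 (0.157), DMSO replicate 3 (0.134), ML141 replicate 1 (0.0654) or ML141 replicate 3 (0.0665). The other kinases, named here to complete the family, were EIF2AK3 (PERK) at a log2 fold change of -0.21 (SE 0.099, adjusted p = 0.0861) and EIF2AK4 (GCN2) at 0.10 (SE 0.083, adjusted p = 0.315, but 0.0407 with upper-quartile factors and 0.0103 with library totals). EIF2AK3 passed the threshold without DMSO replicate 2 (0.0489) or ML141 replicate 1 (0.0177), and with the replicate number as a block (0.0239).

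Of the 8 subunits of eIF2 and its exchange factor eIF2B 0 were higher and 5 lower, with a median log2 fold change of -0.45, against 27.7% lower among all tested genes. At an unadjusted p of 0.05, and by DESeq2 and limma-voom, 0 were higher as well, but 1 was with upper-quartile factors or library totals. EIF2B3 fell by 1.02 on the log2 scale (SE 0.111, edgeR adjusted p = 1.40e-05), to 25.3 ± 2.71 CPM with ML141, against 51.0 ± 2.52 CPM with DMSO. EIF2S1, the subunit phosphorylated in the response, fell by 0.59 (SE 0.085) and EIF2S3 by 0.53 (SE 0.079). Of the PP1 catalytic subunits that PPP1R15 proteins recruit, PPP1CC fell by 0.82 (SE 0.080, edgeR adjusted p = 5.80e-06), while PPP1CA stood at -0.05 (SE 0.101) and PPP1CB at -0.03 (SE 0.103). Of 4 genes of the mitochondrial relay to HRI, EIF2AK1 was lower, where 27.7% of all tested genes were. With library totals 2 were higher and 0 lower, where 39.2% of all tested genes were higher and 20.1% lower. OMA1, the inner-membrane protease, stood at 0.35 (SE 0.139, adjusted p = 0.0510), KIAA0141 (the messenger protein DELE1) at 0.28 (SE 0.122, adjusted p = 0.0715) and YME1L1 at -0.11 (SE 0.083). OMA1 was past the threshold, and higher, under 9 of 17 alternatives, among them without DMSO replicate 1 (0.00990) or ML141 replicate 2 (0.0318), with upper-quartile factors (0.0132) or library totals (0.00603), and with the replicate number as a block (0.00392). KIAA0141 was so under 6 of 17, among them without ML141 replicate 1 (0.00722), with upper-quartile factors (0.0317) or library totals (0.0118), and under the block (0.0169). YME1L1 had the opposite sign, 0.07, with library totals.

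Of 34 other tested bZIP factors 15 were higher (44.1%) and 3 lower (8.82%), with a median log2 fold change of 0.36, against 26.7% higher and 27.7% lower among all tested genes. With library totals 23 were higher and 2 lower, against 39.2% and 20.1% of all tested genes. NFE2L1, a factor of proteasome gene control, rose to 543.8 ± 59.1 CPM with ML141, against 176.3 ± 8.24 CPM with DMSO (log2 1.63, SE 0.092, edgeR adjusted p = 1.52e-07). CREB3L2, a membrane-bound factor of secretory cells, rose by 0.98 (SE 0.095) and JDP2, a repressor related to ATF3, by 1.04 (SE 0.115). BATF3 fell to 0.741 ± 0.217 CPM with ML141, against 2.26 ± 0.128 CPM with DMSO, and MAFF, a small MAF protein, fell to 1.39 ± 0.18 CPM, against 3.11 ± 0.71 CPM with DMSO. Both rest on few counts. BATF3 had 6, 13 and 8 counts in ML141 replicates 1, 2 and 3, against 17, 21 and 25 in the DMSO replicates. MAFF had 17, 16 and 16 counts with ML141, against 18, 36 and 34 with DMSO. CREBZF fell by 0.32 (SE 0.090), a call lost with upper-quartile factors (adjusted p = 0.0810) and library totals (0.207). Of 17 genes of the IRE1 and ATF6 arms of the unfolded protein response 7 were higher (41.2%) and 6 lower (35.3%), against 26.7% and 27.7% of all tested genes. With library totals 8 were higher and 3 lower, against 39.2% and 20.1% of all tested genes. ERN1, the sensor IRE1 itself, rose to 37.1 ± 4.77 CPM with ML141, against 8.44 ± 1.42 CPM with DMSO, and EDEM1 and SEL1L, of endoplasmic reticulum degradation, rose by 1.47 (SE 0.125) and 1.34 (SE 0.114). The chaperone CALR fell by 1.30 on the log2 scale (SE 0.081), PDIA6 by 0.45 (SE 0.097) and MANF by 0.54 (SE 0.114).

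**Figure D5:**
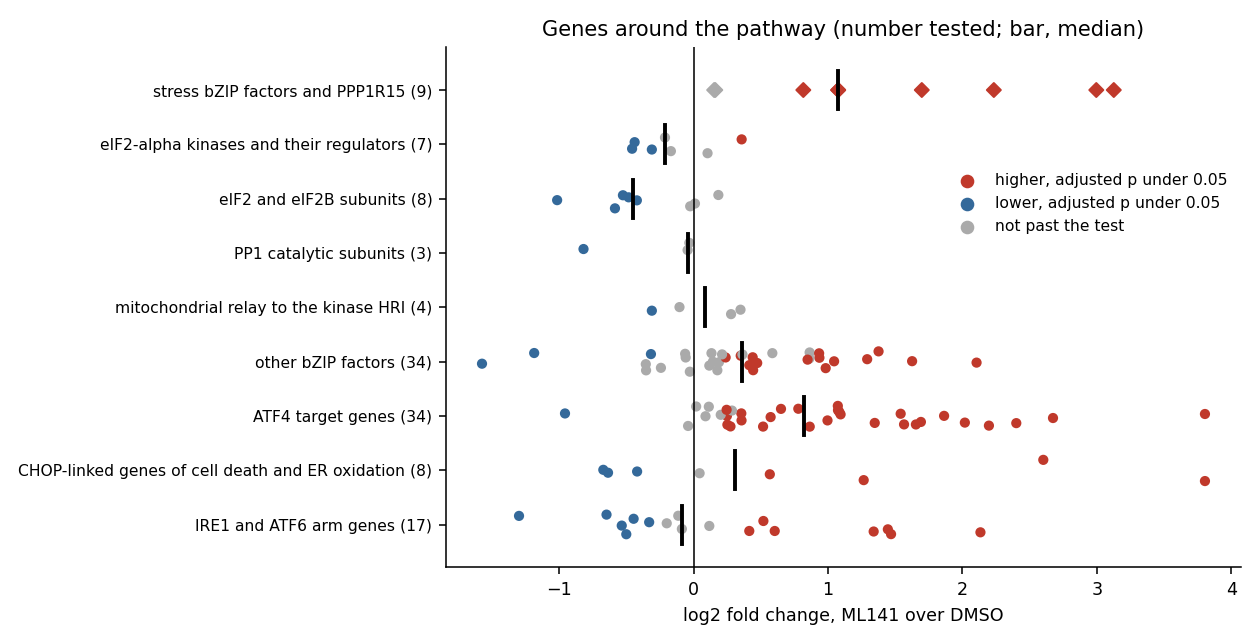
Log2 fold change, ML141 over DMSO, of every tested gene in the set (top row, diamonds) and in 8 lists around it, with red for higher, blue for lower and grey for not past an adjusted p of 0.05, and a black bar at each median. The median is 1.08 for the set and 0.82 for ATF4 target genes, against -0.45 for eIF2 and eIF2B subunits and -0.09 for the IRE1 and ATF6 arms.

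Over the 6 libraries the genes whose log2 CPM most resembled that of ATF4, of 9666 candidates with a mean of at least 5 CPM, were HMCES (Pearson r = 0.9993), NBR2 (0.9986) and YPEL3 (0.9985). Those closest to PPP1R15A were RNASET2 (0.9994), TNIP1 (0.9991) and FAM129A (0.9989). These values describe 6 points that fall into 2 groups and share their libraries. A total of 897 candidates had an r above 0.95 with ATF4 and 989 with PPP1R15A. In the authors' deposited table the log2 fold changes of the 9 tested genes differed from those given here by at most 0.00917, and the same 7 were past an adjusted p of 0.05.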

How the data were processed

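RNA of 6 libraries was made with Illumina TruSeq RNA v2 kits, per the labels' protocols. The authors deposited 1 table of raw counts, listed by gene symbol. The submitters' processing notes name DESeq2, featureCounts, Picard, Bowtie2, Trimmomatic, bcl2fastq 2.19 and the build hg38, with settings and annotation not given in the sources used here. The authors' deposited scores (scaled, rounded counts), ratio (fold change), log2 fold change and p-values served only where named. Columns were matched through sample descriptions.

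Genes passing filterByExpr (minimum count 10, minimum total 15) were tested with edgeR 4.0.16 (R 4.3.3, TMM factors, glmQLFit and glmQLFTest, group only, 2-sided, Benjamini-Hochberg). The SE is the log2 fold change over the square root of F. CPM uses TMM-scaled sizes of tested genes. Limits of 3 counts cover counting error only. Ratios add 0.5 counts to each gene and used exact permutation tests (scipy 1.17.1). Positions and exon lengths come from GENCODE 29 (basic set). Libraries of a group differed by more than sampling noise (chi-square per degree of freedom 2.98 to 19.6).

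Members and lists were chosen with earlier results of these data known. Named from each list were up to 3 genes per direction with the smallest p, and every gene of lists of 6 or fewer. Likeness used log2 CPM with a prior count of 2.

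Alternatives were DESeq2 1.42.0 size factors, upper-quartile factors, library totals, no filter, a stricter filter (1 CPM in 3 libraries and a mean count of 10 per group), the DESeq2 Wald test, limma-voom (limma 3.58.1), a block on replicate number, leaving out single libraries or same-numbered pairs, and for ratios a pseudocount of 5.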

Additional observations from a re-analysis of the deposited data

How the results depend on the processing

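The 7 genes that rose were past an adjusted p of 0.05 under all 17 alternatives, with log2 fold changes of 0.77 to 0.99 for ATF4, 1.54 to 1.87 for ATF5, 0.98 to 1.25 for ATF3, 2.91 to 3.32 for DDIT3, 2.12 to 2.40 for CEBPB, 0.94 to 1.25 for CEBPG and 2.82 to 3.17 for PPP1R15A. NFIL3 ranged from -0.0128 (without ML141 replicate 1) to 0.2944 (without ML141 replicate 2) with libraries left out, and the cause was not tested. Of all changed genes 49.1% were higher, against 59.5% with upper-quartile factors and 66.1% with library totals, so the sign of small changes rests on scaling. Changed genes numbered 4161 to 6567 with libraries left out and 6230 in the main analysis. Without replicate 3 of both groups, where fewer samples were fitted, the kinase list had 2 changed genes (main 4), the other bZIP list 9 (main 18), and the adjusted p-values of GCN1 (0.0653) and CREBZF (0.147) missed the threshold. That of MAFF did so without replicate 2 (0.0586). The list of the mitochondrial relay had 1 to 3 changed genes over all settings (main 1). With the replicate number as a block 6979 genes changed, and no member's call differed, while, of the other genes named here, EIF2AK3, OMA1 and KIAA0141 passed the threshold. Deviations of same-numbered libraries correlated at 0.374, 0.085 and 0.178 for replicates 1, 2 and 3. ML141 replicate 2 correlated best with DMSO replicate 3 (0.291), and the remaining differently numbered pairs stood at -0.366 to -0.029. Whether the numbers pair the samples was thus not settled, and the block was kept as an alternative. The descriptions of same-numbered libraries do share a name tag across the groups, without saying what it marks. Under the block the ratio differences of 2.84 and 1.15 had an exact sign-flip p of 0.25, the smallest that 3 pairs can give. Depth limits CEBPD, which has at most 3 counts in a library.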
